A study of Danio rerio with 4 samples.

Results

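The long arm of zebrafish chromosome 4 was examined in the RNA-seq comparison of wild-type and MZ*eomesa* embryos. Its members are the genes that the deposited table places on chromosome 4 with a start at or above 25 Mb, leaving out 56 entries with a microRNA name. This gave 1738 of the 32468 genes in the table (5.35%), the last of which starts at 62089652. The rule uses position and names, not levels, but the arm was picked for study with earlier results of these data known. Coordinates are those of the table, on the Zv9 assembly. Just outside the rule lie *fgd6* (3.98 FPKM in wild-type against 3.83 FPKM in the mutant) and *VEZT* (15.5 against 11.8 FPKM). Just inside it lie *metap2l* (0.207 against 0.183 FPKM) and *usp44*, a ubiquitin protease of the mitotic checkpoint (47.1 against 31.8 FPKM).

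RNA came from whole embryos at sphere stage, a blastula stage, with 2 samples from wild-type fish and 2 from fish with the *eomesa* fh105 allele, all labelled as strain AB. MZ*eomesa* embryos lack both the maternal and the zygotic contribution of *eomesa*, which encodes a T-box transcription factor. Eggs and sperm both came from homozygous mutants and were joined *in vitro*. Part of the study's work relied on maternal mutants instead, and the labels of these samples name only the allele. Where a pair of levels is given below, the wild-type value comes first and the MZ*eomesa* value second. Levels are in FPKM, which scales the fragments of a gene to its transcript length and to the size of the library. The authors combined the 2 samples of each group into 1 value per gene, so no spread between embryos can be given. Every difference below therefore sets 1 combined value beside another without a test, and the depth behind each value is unknown.

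This arm differs from the rest of the zebrafish genome. It is rich in heterochromatin and repeats, replicates late, and holds long runs of duplicated genes, among them large numbers of zinc finger genes, together with copies of small nuclear and ribosomal RNA genes. Zinc finger proteins of this kind bind DNA through tandem fingers, each folded around a zinc ion held by cysteine and histidine residues.

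The *eomesa* gene itself, on chromosome 19, was listed at 62.6 against 1.52 FPKM, as the labels require. Of 8 early embryo markers, 5 were found by name, at 17.8 to 493 FPKM in wild-type and 5.82 to 588 FPKM in the mutant. Lower in the mutant were *vent* (17.8 against 5.82 FPKM), *sox19b* (96.1 against 58 FPKM) and *vox* (60.5 against 52.2 FPKM). Higher were *sox3* (85.2 against 125 FPKM) and *pou5f1* (493 against 588 FPKM), the highest of the 5 in both groups. The 3 enveloping layer markers *krt4*, *krt8* and *cldne* summed to 158 against 233 FPKM. For later tissues, 7 of 8 marker names were found, and all were at or under 0.728 FPKM in wild-type embryos. The highest of them in MZ*eomesa* embryos, the neuronal gene *elavl3*, was at 3.96 FPKM. The part of cell types or developmental pace in the values of the arm was not tested. In whole embryos, fewer cells of a type and less RNA per cell cannot be told apart.

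By name, 709 members are short RNA genes, 951 are unnamed models and 78 have a gene name. An unnamed model is one with no name, a clone accession, or a clone-based name beginning with si:, zgc: or wu:. The short RNA members are 460 copies of U6, 224 of U1, 18 of 5S rRNA and 7 of 5.8S rRNA. Of the 1738 members, 498 were listed at 0 in both groups, and 422 of these are short RNA genes. A mean over both groups of at least 1 FPKM was reached by 40.7% of all members and by 48.7% of the 1029 members without a short RNA name. On the rest of chromosome 4, again without short RNA names, 51.8% of genes reached it. Unnamed models of the arm reached it about as often as named ones, with 48.8% against 47.4%. On other chromosomes and scaffolds, 32% of unnamed and 59.3% of named genes did.

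Ratios were taken for members with a mean of 1 FPKM or more and a value above 0 in both groups. They are given as log2 of the MZ*eomesa* over the wild-type value, so that a ratio above 0 stands for a higher level in the mutant. Of 654 such members, 474 (72.5%) were higher in MZ*eomesa* embryos, where 48.9% of 14921 genes of the whole table were. The median log2 ratio was 0.36, a 1.28-fold difference, against -0.01 for all genes and -0.01 for the rest of chromosome 4. Levels at least 2-fold higher were listed for 88 members (13.5%), against 5.40% of all genes. Levels at least 2-fold lower were listed for 40 members (6.12%), against 3.80% of all genes. Members thus stood further from the whole table in the upward direction than in the downward one, mostly by modest steps. At 3-fold the balance was the other way, with 10 members (1.53%) higher, against 1.83% of all genes, and 23 (3.52%) lower, against 1.79% of all genes. Of the 23, 7 lie beside copies of a ribosomal RNA gene described further on, and 16 were left without them. The shares of all genes are not matched for level. The median wild-type level was 3.55 FPKM for members with a ratio and 10.5 FPKM for all genes. Shares by level are given further on.

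**Figure D1:**
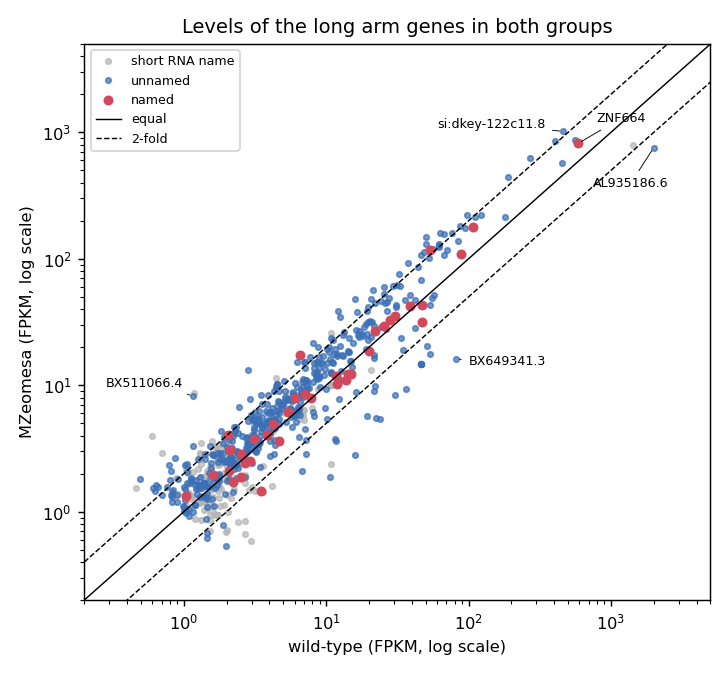
FPKM of the chromosome 4 long arm members in wild-type (x axis) and MZ*eomesa* embryos (y axis), both on log scales, 1 point per gene with a mean of at least 1 FPKM, coloured by name class. Most unnamed models lie above the line of equal levels, several of the strongest beyond the upper 2-fold line, while a small set including *BX649341.3* (81.5 against 16.1 FPKM) lies below the lower one.

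The difference was larger in unnamed models than in named members. Unnamed models make up 464 of the 501 members with a ratio and no short RNA name. Of 464 unnamed models with a ratio, 369 (79.5%) were higher in MZ*eomesa* embryos, with a median log2 ratio of 0.43 and quartiles of 0.08 and 0.80. The 257 models with an si: name had a median of 0.51, with 85.6% of them higher, and their levels summed to 4213 against 7532 FPKM. The 135 clone accessions had a median of 0.34, the 39 models without any name 0.39, and the 33 with a zgc: or wu: name 0.31. Of the 27 unnamed models at least 2-fold lower, 16 were clone accessions, 8 of them near 5.8S rRNA copies as described further on, and 9 were of the larger si: class. Elsewhere, unnamed models lay close to 0 as a class. The 2665 on other chromosomes and scaffolds had a median of 0.06, and the 50 on the rest of chromosome 4 had 0.02. The 1102 with an si: name on other chromosomes and scaffolds had a median of 0.12, with 58% of them higher.

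The 37 named members with a ratio had a median log2 ratio of 0.17, and 24 of them (64.9%) were higher in MZ*eomesa* embryos. Named genes on other chromosomes and scaffolds had a median of -0.04, with 46.3% higher. Those on the rest of chromosome 4 had -0.02, with 47.1% higher, so named members of the arm lay above named genes elsewhere too. At least 2-fold higher were 2 of the 37 (5.41%), *st8sia1* and *gb:am422109*, the latter named after a sequence entry. At least 2-fold lower was 1 (2.7%). These shares were 3.52% and 2.75% for named genes on other chromosomes and scaffolds, and 5.40% and 3.80% for all genes. The medians of unnamed and named members were 0.26 apart on the log2 scale. Ratios of the short RNA members were spread evenly around 0. The 137 U1 copies with a ratio had a median of 0.03, with 11 copies (8.03%) at least 2-fold higher and 11 (8.03%) at least 2-fold lower. The 46 U1 copies off the arm with a ratio were much alike, with a median of 0.05 and 8.7% in each direction. U1 RNA, a spliceosomal RNA, carries no poly(A) tail, and the labels give poly(A) RNA as the molecule sequenced. The part of this in the values of the U1 copies was not tested. U1 copies are gathered in a few places: 82 lie between 35 and 40 Mb, where the 64 with a ratio had a median of -0.09, and 74 between 45 and 50 Mb, where 45 had a median of 0.17. The unnamed models of the same windows had medians of 0.53 and 0.63.

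**Figure D2:**
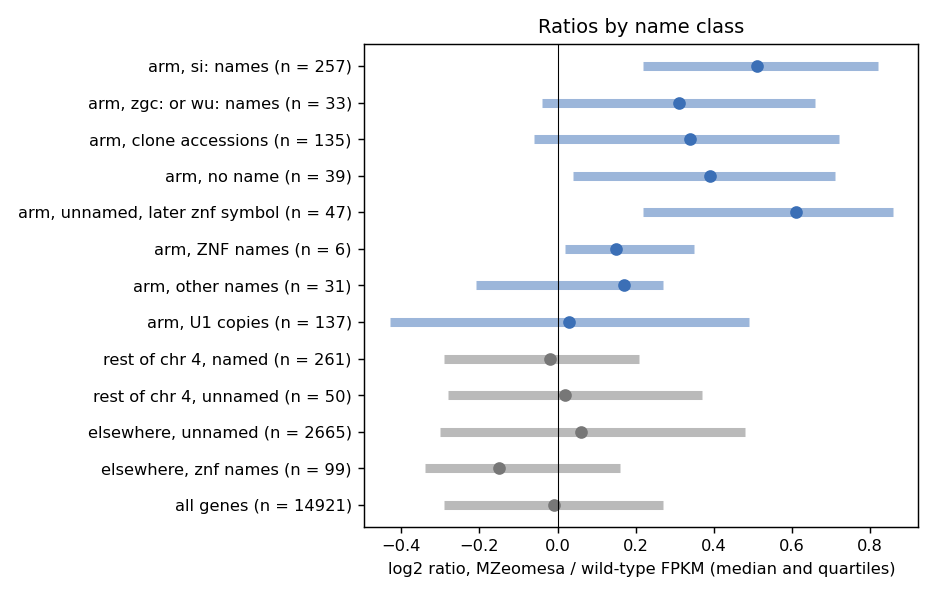
Median (point) and quartiles (bar) of the log2 ratio of mutant over wild-type FPKM for name classes of the chromosome 4 long arm (blue), for genes elsewhere and for all genes (grey), with the number of genes. The first 4 classes, the unnamed models of the arm, have medians from 0.31 to 0.51, while the grey classes lie between -0.15 and 0.06.

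Zinc finger genes under a ZNF name number 6 on this arm in the table, and all 6 had a mean of at least 1 FPKM. *ZNF664* (ENSDARG00000091276, chromosome 4, 48926598 to 48927610) was by far the strongest, at 591 against 820 FPKM (log2 ratio 0.47). The 4 copies of *ZNF519* were much lower. Copy 1 of 4 was at 11.7 against 11.8 FPKM, copy 2 of 4 at 3.86 against 4.08 FPKM, and copy 3 of 4, which shares its span with another gene, at 4.21 against 4.9 FPKM. Copy 4 of 4 was the one lower in the mutant, at 4.7 against 3.65 FPKM. *ZNF22* was at 1.03 against 1.34 FPKM. None of the 6 differed by 2-fold, and their median log2 ratio was 0.15. The 99 genes with a znf name off the arm had a median of -0.15, and 33 of them were higher in MZ*eomesa* embryos.

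Later gene name tables give a znf symbol to 47 of the 951 unnamed models. A later symbol of any kind was found for 277 of them, so other zinc finger genes may remain among the rest. All 47 had a mean of at least 1 FPKM, against 46.1% of the other 904 unnamed models, so the list is weighted to expressed models. The levels of the 47 summed to 1289 against 2009 FPKM. Of the 47, 41 were higher in MZ*eomesa* embryos, with a median log2 ratio of 0.61 (1.52-fold), 5 (10.6%) were at least 2-fold higher and 0 at least 2-fold lower. Of the other unnamed models of the arm, 78.7% were higher, 16.1% at least 2-fold higher and 6.47% at least 2-fold lower. For unnamed models on other chromosomes and scaffolds these shares were 53.7%, 9.83% and 4.88%. For all genes they were 48.9%, 5.40% and 3.80%. The list was drawn up after values had been seen, by symbol alone. For 29 of the 47 the listed span overlaps no other gene, and all 29 were higher in MZ*eomesa* embryos, with ratios from 0.08 to 1.06. Of all 355 unnamed models of the arm with a ratio and no overlap, 79.4% were higher. The 6 of the 47 that were lower all share their span with another gene. Over all members without a short RNA name, those with and without overlap were alike, with 78.9% and 78.3% higher. The 417 unnamed models with a ratio and without such a symbol had a median of 0.41, so the difference was not confined to genes known to encode zinc fingers.

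The strongest of these genes was *CR388052.2*, later *znf1089* (55951577 to 55952441), at 555 against 871 FPKM (log2 ratio 0.65). *si:ch211-286l10.1*, later *znf1020*, was at 122 against 224 FPKM in a span it shares. *zgc:171626*, later *znf1065* (31273069 to 31281817), was at 111 against 215 FPKM. These last differ by 1.84-fold and 1.94-fold. Weaker genes of the list, named after their values were seen, ranged from about 2-fold higher to nearly equal. *znf1058* (ENSDARG00000093994) was at 25.3 against 52.8 FPKM, and *znf1045* (ENSDARG00000094034), which lies a short way on, at 2.97 against 5.7 FPKM. By contrast, *znf1044* (ENSDARG00000092080) was at 42.1 against 47.4 FPKM and *znf1141* (*si:dkey-82i20.3*) at 14.9 against 15.7 FPKM. Of the 6 lower genes, *znf989* (*si:ch211-165i18.1*, 58731174 to 58771018) differed most, at 7.17 against 3.72 FPKM. *znf1068* (ENSDARG00000078728) was at 3.43 against 2.24 FPKM and *znf1050* (ENSDARG00000096210) at 53.6 against 43.1 FPKM. In 1 shared span, *znf1055* (*si:dkey-247i3.4*) was at 6.22 against 15.2 FPKM and *znf1000* (*si:dkeyp-4f2.4*) at 2.41 against 2.2 FPKM, so genes with a common span could differ in direction.

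By position, 7 of the 8 windows of 5 Mb along the arm had a median log2 ratio of at least 0.2, counting members without a short RNA name. The medians were 0.39 from 25 to 30 Mb, 0.54 from 30 to 35 Mb and 0.53 from 35 to 40 Mb. They were 0.22 from 40 to 45 Mb, 0.62 from 45 to 50 Mb, 0.53 from 50 to 55 Mb and 0.22 from 55 to 60 Mb. The last window, from 60 Mb to the end, had a median of -0.13. The higher levels thus began in the first window, ran through most of the arm, were weaker beyond 55 Mb and were not seen in the last window. From 55 to 60 Mb, 3.85% of these members were at least 2-fold higher and 10.3% at least 2-fold lower. For all genes the shares were 5.40% and 3.80%. Unnamed models from 25 to 55 Mb had a median of 0.53, with 85.7% of them higher. Those beyond 55 Mb had a median of 0.08, with 54.8% higher. On the rest of chromosome 4, the 5 windows had medians between -0.06 and 0.10. Across the genome, 268 windows off the arm held at least 20 genes with a ratio, and 6 of them had a median of at least 0.2, the highest being 0.85. That window, chromosome 7 from 5 to 10 Mb, and chromosome 25 from 35 to 40 Mb, at 0.77, lay above every window of the arm. Their shares at least 2-fold higher were 42.4% and 38.9%, against at most 21.1% in a window of the arm. Whole chromosomes, with the arm left out of chromosome 4, had medians between -0.06 and 0.03.

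**Figure D3:**
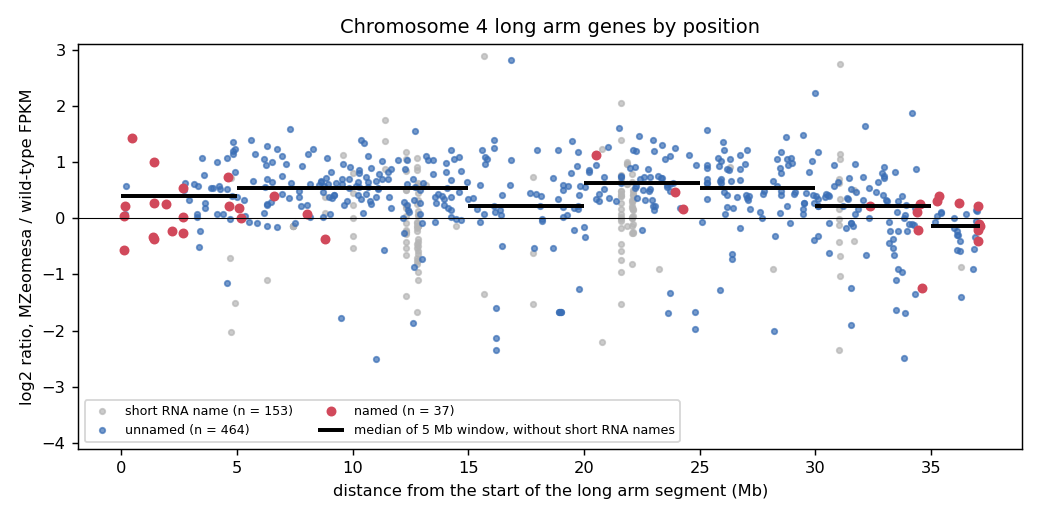
Log2 ratio of mutant over wild-type FPKM of each member with a mean of at least 1 FPKM, by distance of its start from the start of the long arm segment. Black bars are medians of 5 Mb windows without short RNA names, which lie between 0.22 and 0.62 except in the last window, at -0.13. Named genes (red) gather at both ends.

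**Figure D4:**
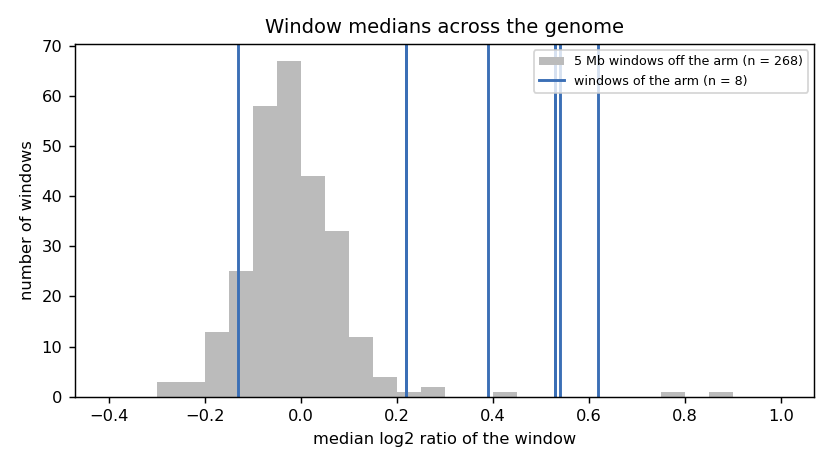
Number of 5 Mb windows by their median log2 ratio, for 268 windows off the arm (grey bars), with the 8 windows of the arm as blue lines, some of which coincide. The windows of the arm range from -0.13 to 0.62, and 6 of the windows off the arm reach 0.2.

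Named genes stand mostly at the ends of the arm. Of the 78, 26 start between 25 and 30 Mb and 34 at or beyond 59 Mb, which leaves 18 between 30 and 59 Mb, where 820 unnamed models lie. The comparison of named with unnamed members is for that reason in part a comparison of the ends with the middle. In the first window, 33 unnamed models with a ratio had a median of 0.52 and 15 named genes a median of 0.21. In the middle, from 30 to 59 Mb, 404 unnamed models had a median of 0.46, and 8 of 9 named genes were higher, with a median of 0.18. Beyond 59 Mb, 27 unnamed models had a median of -0.10 and 13 named genes -0.11. Named and unnamed members thus lay apart in the first stretches and close together at the far end.

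Neighbours on the arm were only weakly alike. Over 386 pairs of neighbouring members whose listed spans overlap no other gene, Pearson's r between the log2 ratios was 0.23, and over 11002 such pairs off the arm it was 0.09. On the arm, pairs ran along the 387 such members with a ratio and no short RNA name, so genes between may have been passed over. These members include models with equal rounded values (log2 ratio -1.67) that lie close together, between 43908512 and 44016872, as described further on. Their part in r is unknown, since r without them was not calculated. The pairs share the same 4 libraries.

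The named genes at the near end include several of general cell function, chosen here after their values were seen. *st8sia1* (25456345 to 25477077), a sialyltransferase of ganglioside synthesis, was at 6.54 against 17.5 FPKM (log2 ratio 1.42). *gstp1* (29632401 to 29639074), a glutathione transferase, was at 107 against 178 FPKM. *brd1*, a chromatin protein with a bromodomain, was at 2.04 against 4.08 FPKM in a span shared with another gene, just short of 2-fold before rounding. *alg10* and *alg12*, enzymes that build the sugar chain for protein glycosylation in the endoplasmic reticulum, had log2 ratios of 0.02 and -0.36. *creld2*, *trmu*, a tRNA-modifying enzyme, and *cerk*, a ceramide kinase, lay between -0.33 and -0.22. Apart from the first 3 genes, these levels differed by less than 1.5-fold.

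At the far end, *nup50*, a nuclear pore protein, was at 88.3 against 109 FPKM. *RAB21*, a small GTPase of endosomes, was at 39.1 against 42.3 FPKM. *terfa*, which binds telomere repeats, *CCT2 (1 of 2)*, a chaperonin subunit, and *arfgap3*, a regulator of vesicle transport, had log2 ratios of -0.11, -0.13 and -0.21, the last in a shared span. *PTPRR*, a receptor tyrosine phosphatase, was the named gene at least 2-fold lower, at 3.46 against 1.47 FPKM. These too were chosen after their values were seen. Of the tripartite motif genes, *trim24*, a chromatin-binding cofactor, was at 14.2 against 12.3 FPKM. *ftr51*, of the finTRIM group of fishes, was at 0.344 against 0.787 FPKM. The 10 members with an *ms4a17a* name, genes for membrane-spanning proteins, were all at or under 0.198 FPKM in both groups.

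Medians were higher among unnamed models with a higher mean FPKM over both groups. Between 1 and 5 FPKM, 222 models had a median log2 ratio of 0.34. Of these, 24 (10.8%) were at least 2-fold higher and 5 (2.25%) at least 2-fold lower. Unnamed models on other chromosomes and scaffolds in this range had 13.4% and 6.34%, so the arm held no excess of 2-fold higher models there. The median was 0.46 for 153 models between 5 and 20 FPKM, with 12.4% and 7.19%, against 7.16% and 3.52% elsewhere. It was 0.67 for 72 models between 20 and 100 FPKM, of which 20 (27.8%) were at least 2-fold higher and 10 (13.9%) at least 2-fold lower. For unnamed models on other chromosomes and scaffolds at 20 to 100 FPKM, these shares were 6.1% and 3.05%. The 10 lower models of the arm include 6 with the same rounded values, 46.4 against 14.6 FPKM, and *BX548011.3* (36.6 against 9.3 FPKM). These lie beside the ribosomal RNA copies described further on, and the 6 were not read as separate signals. The share of 13.9% is therefore not a measure of lower models in general. At 100 FPKM or more the median was 1.05, with 16 of 17 models higher and 9 (52.9%) at least 2-fold higher, against 3.85% elsewhere. Unnamed models on other chromosomes and scaffolds had medians of 0.12, 0.04, -0.02 and 0.06 in the same ranges. The distance between the arm and the other chromosomes was thus widest in the highest range of the mean. A higher mutant value raises this mean, so models higher in the mutant are moved towards the upper ranges by the grouping itself. Examples are *si:ch211-187d1.3* (63.5 against 161 FPKM) and *CR356223.3* (67.6 against 157 FPKM), in the top range only through their mutant values. Grouping by wild-type level was not tested. Across the 464 single models, Pearson's r between log level and ratio was only 0.08, a description over genes that are not independent.

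**Figure D5:**
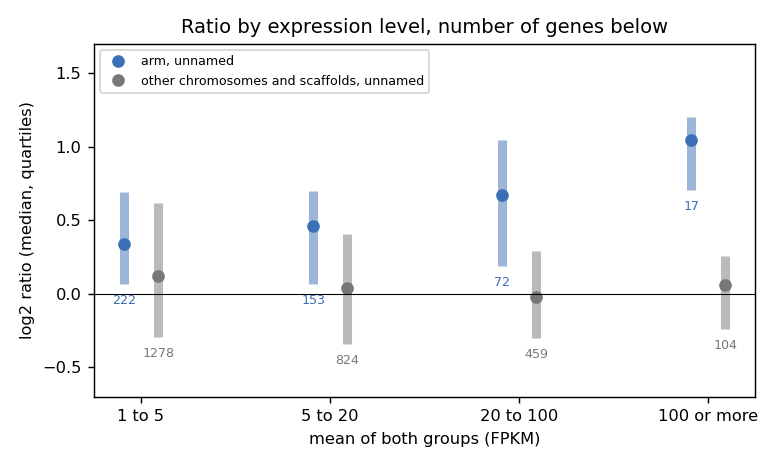
Median (point) and quartiles (bar) of the log2 ratio of mutant over wild-type FPKM for unnamed models, grouped by the mean FPKM of both groups (x axis), on the chromosome 4 long arm (blue) and on other chromosomes and scaffolds (grey), with the number of models below each bar. The medians of the arm go from 0.34 in the lowest range to 1.05 in the highest.

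Several single models reached high levels. *si:dkey-122c11.8* (33088436 to 33113260) was at 463 against 1018 FPKM (log2 ratio 1.14), and no other gene overlaps its span. *BX321871.2*, which shares its span, was at 452 against 573 FPKM. Further strong models, named after their values were seen, were *si:dkey-25i10.6* (31175907 to 31176505) at 408 against 853 FPKM and *si:ch211-234c11.3* (52061724 to 52099448) at 269 against 627 FPKM. *si:ch211-187d1.3* (51011494 to 51017775) was at 63.5 against 161 FPKM. They are spread over much of the arm and do not form 1 block.

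The strongest member without a short RNA name went the other way. *AL935186.6* (61294795 to 61296820) was at 1999 against 758 FPKM (log2 ratio -1.40). It lies within 5 kb of a 5.8S rRNA copy that starts at 61299023 and was at 1439 against 794 FPKM. 5.8S RNA is a part of the large ribosomal subunit, and its gene lies in the ribosomal repeat unit between those of the small subunit and the large subunit RNAs. Around the 7 copies of 5.8S rRNA on the arm, 37 members without a short RNA name start within 5 kb, a limit chosen after the values were seen. Of these, 29 were listed at 0 in both groups and the other 8 were all at least 2-fold lower in MZ*eomesa* embryos, with summed levels of 2314 against 855 FPKM. These 8 are among the 28 members without a short RNA name that were at least 2-fold lower. Over the whole table, 3.80% of genes with a ratio were at least 2-fold lower. A window off the arm, chromosome 20 from 55 to 60 Mb, was picked after its values were seen. It held 19 genes without a short RNA name, 11 of them at 0 in both groups. All 4 with a ratio were at least 2-fold lower, and whether they lie near ribosomal RNA genes was not examined. The other 6 copies of 5.8S rRNA were each listed at 0.0784 against 0.295 FPKM. The molecule sequenced is labelled poly(A) RNA, as given above, and the part of this in the values near these copies was not tested.

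Among these 8, 6 have a listed span of 419 bases and the same rounded values, 46.4 against 14.6 FPKM. They are *CT583728.5*, *CT583728.8*, *CT583728.12*, *CT583728.20* and *CU278559.3*, all between 43908512 and 44016872, and *BX548011.5* at 49792629. *BX548011.3*, near the last, was at 36.6 against 9.3 FPKM. Before rounding they fall into 2 distinct pairs of values, 1 shared by 4 models and 1 by 2, and they were therefore not read as 6 separate signals.

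Summed over the 1029 members without a short RNA name, the arm was at 11039 against 14717 FPKM, a log2 difference of 0.41. That was 2.09% of the sum over the table in wild-type and 2.66% in the mutant. Without the members near the 5.8S rRNA copies the log2 ratio of the sums was 0.67. The 10 strongest members held 47.4% of the summed wild-type FPKM of the arm. The sums of whole chromosomes, with the arm left out of chromosome 4, had log2 ratios between -0.05 and 0.12. Both the sums and the single values depend on how reads that map to several copies were divided among them.

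Of the members at or above 1 FPKM in both groups, a U1 copy (ENSDARG00000090178) had the largest ratio, at 1.18 against 8.7 FPKM. Next came *BX511066.4*, which shares its span, at 1.17 against 8.25 FPKM, and *BX469910.1* (54963166 to 54969712) at 2.84 against 13.3 FPKM (log2 ratio 2.23). ENSDARG00000096206 (57143883 to 57150565) was at 12.2 against 38.5 FPKM and *zgc:174642* (32289664 to 32294847) at 15.9 against 47.8 FPKM. With log2 ratios of 1.65 and 1.59, these last were about 3-fold higher. Ratios beyond 3-fold were thus rare among the 88 higher members, and the largest belonged to genes of low wild-type level.

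At the lower extreme stood short models. *si:dkey-176f19.1* (35991266 to 35992081) was at 16 against 2.82 FPKM (log2 ratio -2.50). ENSDARG00000079085 (58821507 to 58822599) was at 10.6 against 1.89 FPKM, and a U6 copy (ENSDARG00000086677) at 10.9 against 2.37 FPKM. *BX649341.3* (41188659 to 41189069) was at 81.5 against 16.1 FPKM and *si:dkey-199k11.8* (41190591 to 41190963) at 23.9 against 5.46 FPKM. These last lie side by side, and their neighbour *si:dkey-199k11.6* (41185436 to 41188493), named after its value was seen, was lower too, at 53.5 against 17.6 FPKM. Some way before them, *BX649341.1* (41113744 to 41125063), which shares its span with another gene, was at 21.5 against 56.3 FPKM, the other way. The cluster of 3 lower models thus lay in the same stretch of the arm as a higher one, without adjoining it. With 5 of the models near 5.8S rRNA copies, it made up 8 of the 9 lower members without a short RNA name between 40 and 45 Mb.

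Lower and higher members differed in listed span. Of the 24 lower ones without a short RNA name whose span overlaps no other gene, 14 were under 2 kb, with a median span of 1340 bases. The 6 models of 419 bases with equal rounded values are among these 14, and without members near 5.8S rRNA copies 8 of 18 were under 2 kb, with a median of 2471 bases. Of the 51 higher ones, 9 were under 2 kb, with a median of 6281 bases. Over all unnamed models without overlap, the median log2 ratio was 0.24 for 70 models under 2 kb, of which 14 (20%) were at least 2-fold lower. It was 0.46 for 181 models of 2 to 10 kb and 0.41 for 104 models of 10 kb or more, of which 7 and 2 were at least 2-fold lower. On other chromosomes and scaffolds the corresponding medians were 0.25, 0.06 and 0.02. Medians thus lay apart between the arm and the other chromosomes in the longer models and were close in the short ones. The short models of the arm were nevertheless more often lower and less often higher in count, with 20% at least 2-fold lower and 12.9% at least 2-fold higher, against 7.99% and 20.9% on other chromosomes and scaffolds, a difference that was not tested. Without the models near 5.8S rRNA copies, 64 short models were left on the arm, with a median of 0.28, 8 (12.5%) at least 2-fold lower and 9 (14.1%) at least 2-fold higher. The division by span was chosen after the values were seen.

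Members listed at 0 in one group and at 1 FPKM or more in the other were all short RNA genes. There were 37 at 0 in wild-type and 50 at 0 in MZ*eomesa* embryos. The highest value among them belonged to a U6 copy (ENSDARG00000082845), with 27.3 FPKM in wild-type embryos and a listed 0 in the mutant. The next 3 were 5S rRNA copies. ENSDARG00000084756 was at a listed 0 against 14.8 FPKM, while ENSDARG00000085413 and ENSDARG00000087771 had 10.9 and 10.5 FPKM in wild-type embryos and a listed 0 in the mutant. The fifth was a U6 copy (ENSDARG00000080506) with 6.73 FPKM in wild-type embryos and a listed 0 in the mutant. These are short genes with many copies, and a listed 0 need not mean that RNA was absent. The authors' status for each of the 5 was OK, with no failure flagged. No member outside the short RNA names went from 0 to 1 FPKM or back. The same count over the whole table is not given here. At a mean of at least 1 FPKM, 654 of 708 members were above 0 in both groups, against 14921 of 15103 genes of the whole table. For the short RNA members alone it was 153 of 207.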

How the data were processed

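Poly(A) RNA of whole sphere stage embryos, 2 wild-type and 2 MZ*eomesa* samples, was sequenced by the study as single reads. The authors mapped the reads with TopHat2 2.0.5 to Zv9 and estimated expression with Cufflinks, with its option to divide reads that map to several places. The versions of Cufflinks and of the gene annotation are not given in the sources used here. The authors' deposited table gives FPKM per gene and group, both samples combined, with 0 further columns of values per sample. Its columns of the authors' own comparison (fold change, test statistic, p, q and significance) were not used. With the depth of each sample unknown, neither intervals nor detection limits were calculated.

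Log2 ratios were computed without a pseudocount for genes whose mean FPKM was 1 or more and both groups above 0. A 2-fold difference was the limit for counting a gene as higher or lower. No test was made, since each group has 1 combined value. Overlap means that the listed span shares bases with another gene's span, and this held for 256 of the 1029 members without a short RNA name, several of which have 1 span in common. Names were classed by their form. Later symbols came from a table of Ensembl gene names and from RefSeq symbols and synonyms (GRCz12tu, names only). The genes named were the ZNF members, the 5 highest in wild-type without a short RNA name, the 5 largest and the 5 smallest ratios where both groups reached 1 FPKM, the 5 strongest listed at 0 in 1 group, and the 3 strongest of each family (zinc finger by later symbol, tripartite motif). Families by protein sequence and promoter motifs were not analysed here. Alternatives changed the pseudocount, the filter, the centring, the fold limit, the start of the arm and the members left out. The members and lists were chosen with earlier results of these data known. The code that counts genes and takes medians was tested on simulated data with known answers. Computation was in Python 3.11.15 with pandas 2.3.3 and numpy 2.4.6, and plots were drawn with matplotlib 3.10.9.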

Additional observations from a re-analysis of the deposited data

How the results depend on the processing

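The median log2 ratio of the members and that of the unnamed models stayed above 0 under every alternative run. They moved by 0.1 or more only when the mean had to reach 5 FPKM, to 0.46 and 0.54. The counts of members at least 2-fold higher and lower were 203 and 77 with no filter, and 52 and 23 at a mean of 5 FPKM or more. With a limit of 1.5-fold they were 219 and 68, and with 3-fold 10 and 23. The share of members reaching 1 FPKM was 48.7% without short RNA names. Of all members, 71.3% were above 0 in either group, 61.9% reached 0.1 FPKM and 17.2% reached 5 FPKM. The log2 ratio of the summed FPKM was 0.52 without the 10 strongest members, 0.63 without overlapping genes and 0.67 without members near 5.8S rRNA copies, all chosen after seeing the data. Pseudocounts of 1 and 0.1, centring, a start at 20 or 30 Mb, leaving out overlapping genes, and, added after seeing the data, counting identical members once or leaving out members near 5.8S rRNA copies kept the counts within 1.5 times and both medians within 0.1. Of 72 values of 24 named genes under pseudocounts and centring, 0 changed sign and 12 moved by at least 0.1. No paired analysis was possible because the table holds no value per sample, and leaving out a replicate could not be run for the same reason. Whether a single member differs beyond the spread between embryos is therefore unknown.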
